A study of Mus musculus with 6 samples.

Results

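The Notch pathway and the transcription factors that direct gut epithelial cells to an absorptive or a secretory fate were followed through 10 genes. These were the receptors Notch1 and Notch2, the ligands Dll1, Dll4 and Jag1, the Notch-induced repressor Hes1, the secretory fate factors Atoh1, Gfi1 and Spdef, and the crypt factor Sox9. The genes were chosen by name, and every probe set paired with 1 of them was taken, which gave 17 of the 34945 probe sets that were paired with a single gene and 10 of the 18193 genes measured. Gene expression was measured on 6 arrays of intestinal epithelial cells from C57BL/6 mice, 1 array per animal. In the 3 caspase-8 deficient animals the floxed casp8 gene is combined with the villinCre transgene, in which the villin promoter drives Cre recombinase in the gut epithelium. The 3 floxed control animals carry the floxed casp8 gene without Cre, so both groups share the floxed allele, and an effect of Cre itself cannot be told apart from loss of the gene. The sources used here do not state the age, sex or gut segment of the animals, or how many floxed alleles they carry. Values are the deposited log2 expression levels (RMA, robust multi-array average), so a difference of 1 is a doubling or a halving, and levels can be compared between arrays but not between genes.

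Notch signalling passes between touching cells. A Delta-like or Jagged ligand on one cell makes proteases cut the Notch receptor of its neighbour, and the freed inner part enters the nucleus, joins the DNA-binding protein RBPJ and switches on repressors such as HES1. In crypts of the gut HES1 holds down ATOH1, so that cells with active Notch become absorptive enterocytes, while cells that escape it express ATOH1 and become goblet, Paneth, enteroendocrine or tuft cells. GFI1 and SPDEF act after ATOH1, with SPDEF needed for mature goblet and Paneth cells, and SOX9 is a crypt factor on which Paneth cells depend.

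The arrays carried the epithelial signature that the labels name. All 10 epithelial markers were bright, with mean levels of 11.45 to 13.70, and 0 of them passed the test between the groups. On every deficient array 4 of them were higher than on any control and 0 were lower, against 11.5% and 11.2% of all genes. Their summed linear level was 71059 to 75730 over deficient arrays and 66012 to 68221 over controls. Casp8, the targeted gene, read 9.27, 9.56 and 10.40 in deficient replicates 1, 2 and 3, against 10.53, 9.74 and 10.24 in controls (limma, adjusted p = 0.518). Its single probe set may lie outside the removed exons, so it does not check the genotypes. Deficient replicate 1 stood apart: the mean of 15 endothelial markers lay 2.11 above the control mean there, against 0.04 and 0.02 in the other deficient arrays, and that of 15 kidney tubule markers 1.49 above it, against −0.03 and −0.11. As a measure of RNA quality, the level of Gapdh at its 3′ end minus that at its 5′ end was 0.29, 0.21 and 0.23 in deficient replicates 1, 2 and 3, against 0.68, 0.93 and 0.22 in controls (a larger gap means more broken RNA).

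Atoh1 and Sox9 were lower in caspase-8 deficient cells than in controls, 1.79-fold and 1.83-fold. Spdef and Gfi1 had differences in the same direction that did not pass, and the differences of the 3 ligands and Hes1 lay between −0.04 and 0.15 with overlapping groups. Of the 10 genes, 2 fell (Atoh1 and Sox9), 0 rose and 8 did not pass an adjusted p of 0.05 in limma, where 0.467% of all genes tested were called lower and 0.775% called in either direction. The median log2 difference was −0.56 over the 10 genes, against 0.02 over all 18193. The groups did not overlap in 5 of the 10 genes (Atoh1, Sox9, Spdef, Gfi1 and Notch2), all lower in deficient cells, against 11.2% of all genes in that direction and 22.7% in either. Per probe set, 2 of 17 fell and 0 rose, where 0.249% of all probe sets were called lower and 0.398% in either direction. The groups did not overlap in 7 probe sets that were lower and 1 that was higher in deficient cells, against 10.1% and 11.0% of all probe sets, 21.1% together. The median difference was −0.22 over the 17 probe sets, against 0.02 over all 34945.

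**Figure D1:**
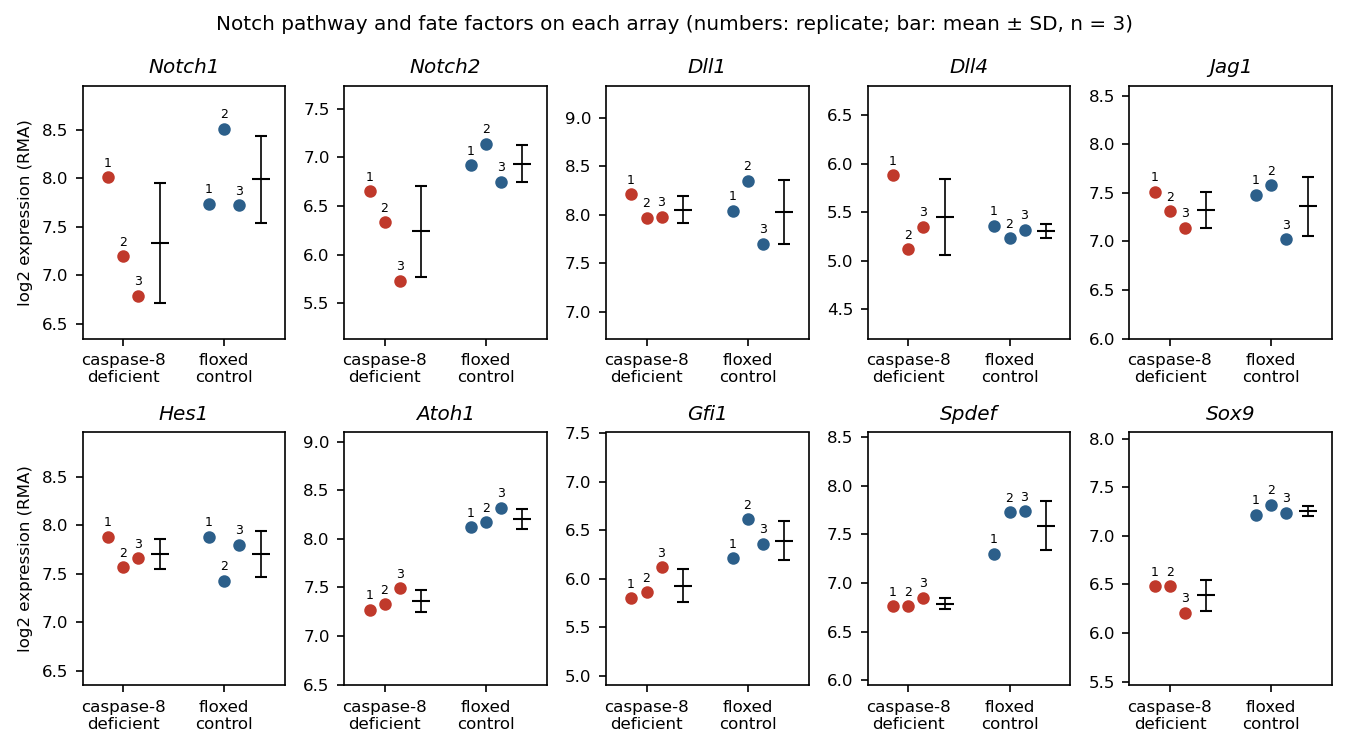
Log2 expression (RMA) of the 10 genes on each array, with caspase-8 deficient arrays in red and floxed control arrays in blue. Numbers are replicates, the bar beside each group is its mean ± SD (n = 3), and every panel spans the same range of log2 units. Atoh1, Sox9, Spdef, Gfi1 and Notch2 show no overlap between groups, while Hes1 and the 3 ligands overlap.

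Atoh1, the factor that commits a crypt cell to the secretory lineage, read 7.27, 7.33 and 7.49 in deficient cells, against 8.12, 8.17 and 8.32 in controls. All 3 deficient arrays lay well below all 3 controls, and the spread within each group was small. The means were 7.36 ± 0.11 in deficient cells and 8.20 ± 0.10 in controls (SD, n = 3 each), a log2 difference of −0.84 (SE 0.12, 95% confidence interval −1.11 to −0.57), or 1.79-fold lower (limma, adjusted p = 0.0263). Atoh1 was measured by 1 probe set. In bulk RNA, fewer secretory cells and less Atoh1 RNA per cell cannot be told apart. The fall kept its size when any array was left out, between −0.90 and −0.78, but adjusted p depended on the array: 0.0430 without deficient replicate 1, and 0.0798 to 0.150 when any other array was dropped. It did not pass with the Gapdh difference as a covariate (0.132) or without control replicates 1 and 2 (0.426).

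Spdef, which drives goblet and Paneth cell maturation downstream of ATOH1, read 6.76, 6.76 and 6.85 in deficient cells, against 7.30, 7.73 and 7.74 in controls. The deficient arrays were close together, and the lowest control was replicate 1. The log2 difference was −0.80 (SE 0.14, 95% confidence interval −1.14 to −0.47, limma), close in size to that of Atoh1, but with an adjusted p of 0.0553 it did not pass. It passed when dim genes were left out (adjusted p = 0.0247), with a variance trend and robust prior (0.0389) and with array weights (0.0267). In the other 12 settings run it did not pass, with adjusted p from 0.0524 to 0.376.

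Gfi1, a zinc finger repressor that keeps Atoh1-positive cells from an endocrine fate, read 5.80, 5.86 and 6.12 in deficient cells, against 6.21, 6.61 and 6.36 in controls. The groups did not overlap, with a narrow gap between deficient replicate 3 and control replicate 1. Its log2 difference of −0.47 (SE 0.15, 95% confidence interval −0.81 to −0.12, limma) did not pass (adjusted p = 0.188). All 3 secretory fate factors thus had unadjusted intervals below 0, and 1 of the 3 passed the adjusted test.

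The sequences before a transcription start of Atoh1 and of Spdef are shown because, of the 3 secretory fate factors among the 10 genes, these had the largest differences. They are the 250 bases upstream of a start in RefSeq (GRCm38.p6), 5′ to 3′ on the gene's strand, at chr6:64728875-64729124 (plus strand) for Atoh1 and chr17:27728952-27729201 (minus strand) for Spdef. The Atoh1 window ends at the edge of its gene. The Spdef window lies inside the span of its gene (chr17:27714446-27731003), so it precedes an internal start and not the outermost one. Capitals mark matches, on either strand, to TGGGAA, the core bound by RBPJ, to CAGCTG, an E-box that ATOH1 can bind, or to CACNAG, the N-box bound by HES repressors.
Atoh1: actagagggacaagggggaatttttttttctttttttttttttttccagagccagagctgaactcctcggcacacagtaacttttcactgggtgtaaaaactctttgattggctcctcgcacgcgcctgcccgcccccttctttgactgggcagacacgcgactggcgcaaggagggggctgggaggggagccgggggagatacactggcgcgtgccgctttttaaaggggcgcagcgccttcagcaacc
Spdef: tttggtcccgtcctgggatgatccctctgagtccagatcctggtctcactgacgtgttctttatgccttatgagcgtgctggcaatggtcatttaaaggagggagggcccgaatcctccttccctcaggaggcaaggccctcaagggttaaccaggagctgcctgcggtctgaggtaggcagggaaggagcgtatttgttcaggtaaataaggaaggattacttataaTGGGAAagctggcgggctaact
The Spdef window held 1 match, to TGGGAA, whose first base lies 22 bases before that internal start, and the Atoh1 window held none of the 3 motifs. Of 32851 windows of the same length before mouse gene starts, 21.6% held TGGGAA, 13.0% CAGCTG, 36.7% CACNAG and 56.2% at least 1 of them. RefSeq windows were matched for 8 of the 10 genes, 10 windows in all, of which 1 held TGGGAA, 2 held CAGCTG (Dll1 and Jag1) and 3 held CACNAG (Notch1, Notch2 and Dll4).

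Sox9, an HMG-box factor of crypt cells, read 6.48, 6.48 and 6.21 in deficient cells, against 7.22, 7.32 and 7.24 in controls by its brightest probe set. All deficient arrays lay below all controls, replicate 3 furthest. The means were 6.39 ± 0.16 in deficient cells and 7.26 ± 0.05 in controls (SD, n = 3 each), a log2 difference of −0.87 (SE 0.12, 95% confidence interval −1.15 to −0.59), or 1.83-fold lower (limma, adjusted p = 0.0263). The second probe set read 6.14, 5.90 and 5.51 in deficient cells, against 6.78, 6.86 and 6.47 in controls. It gave nearly the same difference, −0.86, without passing among all probe sets (limma, adjusted p = 0.107). The third was at the dim end of the scale, at 2.74, 2.81 and 2.55 in deficient cells and 3.06, 3.00 and 3.12 in controls, with a difference of −0.36 (adjusted p = 0.217). The groups were separate in all 3 probe sets, and deficient replicate 3 was the lowest array in each. Sox9 missed the threshold with the mean of its probe sets (−0.70, adjusted p = 0.0550), with the replicate block (0.0541), with the Gapdh difference as a covariate (0.200) and without control replicates 1 and 2 (0.572). Adjusted p was 0.0342 when deficient replicate 1 was dropped and 0.0761 to 0.128 when any other array was.

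**Figure D2:**
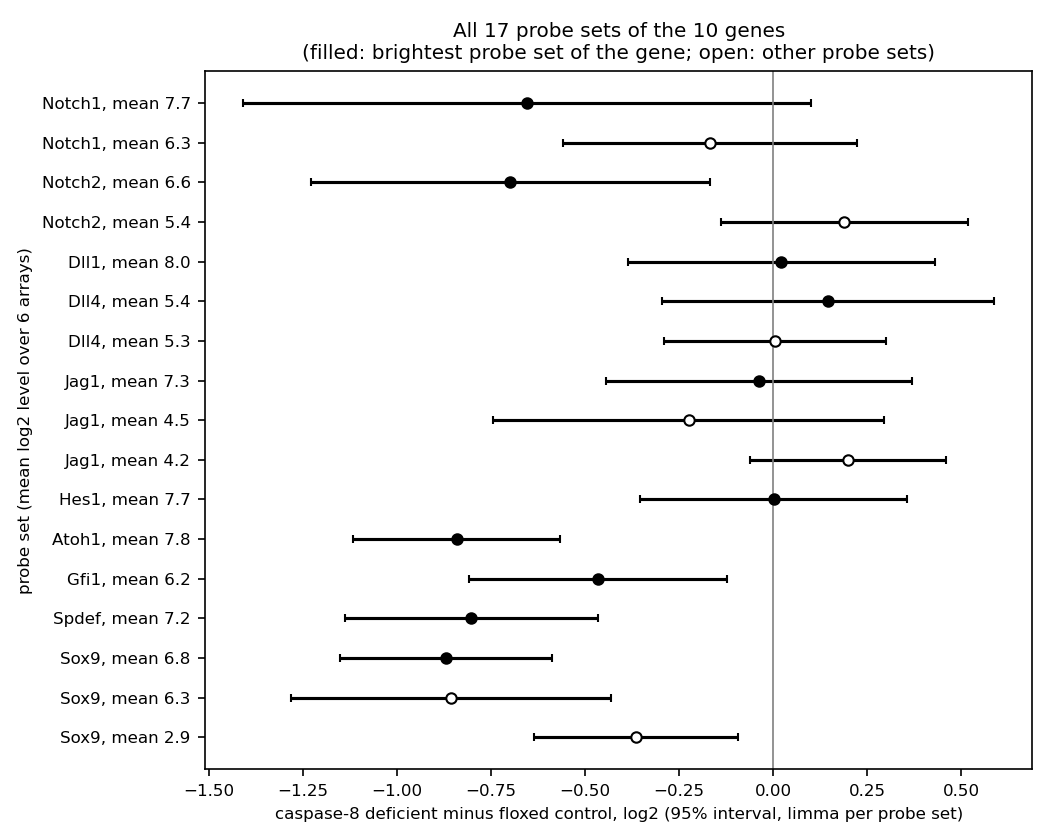
Log2 difference, caspase-8 deficient minus floxed control, for all 17 probe sets with the 95% confidence interval of the limma fit per probe set. Filled points are the brightest probe set of each gene, open points the others. Sox9 lies below 0 by all 3 probe sets, while the 2 probe sets of Notch2 lie on opposite sides of 0 at −0.70 and 0.19.

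Hes1, the repressor that Notch induces, read 7.88, 7.57 and 7.66 in deficient cells, against 7.88, 7.43 and 7.80 in controls. The arrays of both groups were interleaved, with deficient replicate 1 and control replicate 1 at the same level. The log2 difference was 0.00 (SE 0.15, limma, adjusted p = 0.998), and its 95% confidence interval of −0.35 to 0.36 leaves room for modest changes in either direction. Within each array, Atoh1 minus Hes1 was −0.60, −0.25 and −0.18 in deficient cells, against 0.24, 0.74 and 0.52 in controls. This measure, which a constant shift between arrays does not change, differed by −0.84, and the groups did not overlap. With the Hes1 difference at 0.00, it mostly restates the Atoh1 difference. An exact two-sided permutation test over the arrays gave p = 0.1, the smallest that 3 against 3 arrays allow.

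The ligands showed no separation between the groups. Dll1, the Delta-like ligand that secretory progenitors present to their neighbours, read 8.21, 7.97 and 7.98 in deficient cells, against 8.04, 8.35 and 7.70 in controls. The controls enclosed the deficient arrays, and the difference was 0.02 (95% confidence interval −0.38 to 0.43, limma, adjusted p = 0.964). Jag1, which encodes the ligand Jagged1, read 7.51, 7.31 and 7.14 in deficient cells, against 7.48, 7.58 and 7.02 in controls by its brightest probe set. The groups again overlapped, at −0.04 (95% confidence interval −0.44 to 0.37, adjusted p = 0.937). The 2 dimmer Jag1 probe sets pointed opposite ways, at −0.22 and 0.20. In the dimmest the deficient arrays lay above all controls, at 4.20, 4.41 and 4.29 against 4.04, 4.13 and 4.13, without passing (limma, adjusted p = 0.444).

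Dll4, the ligand that acts redundantly with Dll1 in crypts and is also prominent in endothelium, read 5.88, 5.12 and 5.35 in deficient cells, against 5.36, 5.23 and 5.32 in controls. Deficient replicate 1 was the highest array and the other deficient arrays lay around the controls. The difference of 0.15 (limma, adjusted p = 0.740) became −0.07 without that array (adjusted p = 0.846). A second Dll4 probe set read 5.46, 5.26 and 5.32 in deficient cells and 5.46, 5.40 and 5.16 in controls, with a difference of 0.01. The 15 endothelial markers, all measured, had a summed linear level of 447 to 2023 over the deficient arrays and 405 to 471 over the controls, with the highest sum in deficient replicate 1. The scale has no 0, and Pecam1 and Cdh5, which define endothelium, read 5.19 and 6.76 on deficient replicate 1, and no more than 3.63 and 3.89 on any other array. The part of endothelial RNA in the Dll4 value of that array was not tested beyond leaving it out.

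Neither receptor passed the test, and deficient animals were widely spread by the brightest probe set of each. Notch1 read 8.01, 7.20 and 6.79 in deficient cells, against 7.74, 8.51 and 7.72 in controls. Deficient replicate 1, the array with high endothelial markers, fell inside the control range and the other deficient arrays below it. The part of endothelial RNA in its Notch1 value was not tested beyond leaving that array out. The log2 difference was −0.65 (SE 0.33, 95% confidence interval −1.41 to 0.10, limma, adjusted p = 0.364). It was −0.99 without deficient replicate 1 (adjusted p = 0.124), −0.38 without deficient replicate 3 (0.641) and −0.40 without control replicate 2 (0.652). A second, dimmer Notch1 probe set stood at −0.17.

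Notch2, which acts together with Notch1 in crypt progenitors, read 6.65, 6.33 and 5.73 in deficient cells, against 6.92, 7.14 and 6.75 in controls. The groups did not overlap, with a narrow gap between deficient replicate 1 and control replicate 3. The difference of −0.70 (SE 0.23, 95% confidence interval −1.23 to −0.17, limma) did not pass (adjusted p = 0.201), and without deficient replicate 3 it was −0.44 (adjusted p = 0.381). Its dimmer probe set read 5.61, 5.42 and 5.35 in deficient cells, against 5.04, 5.33 and 5.43 in controls, a difference of 0.19 in the other direction (adjusted p = 0.562). With the mean of both, Notch2 stood at −0.25 (adjusted p = 0.473). Deficient replicate 3 was the lowest of all arrays in both Notch1 probe sets, the brighter Notch2 probe set and all 3 of Sox9.

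**Figure D3:**
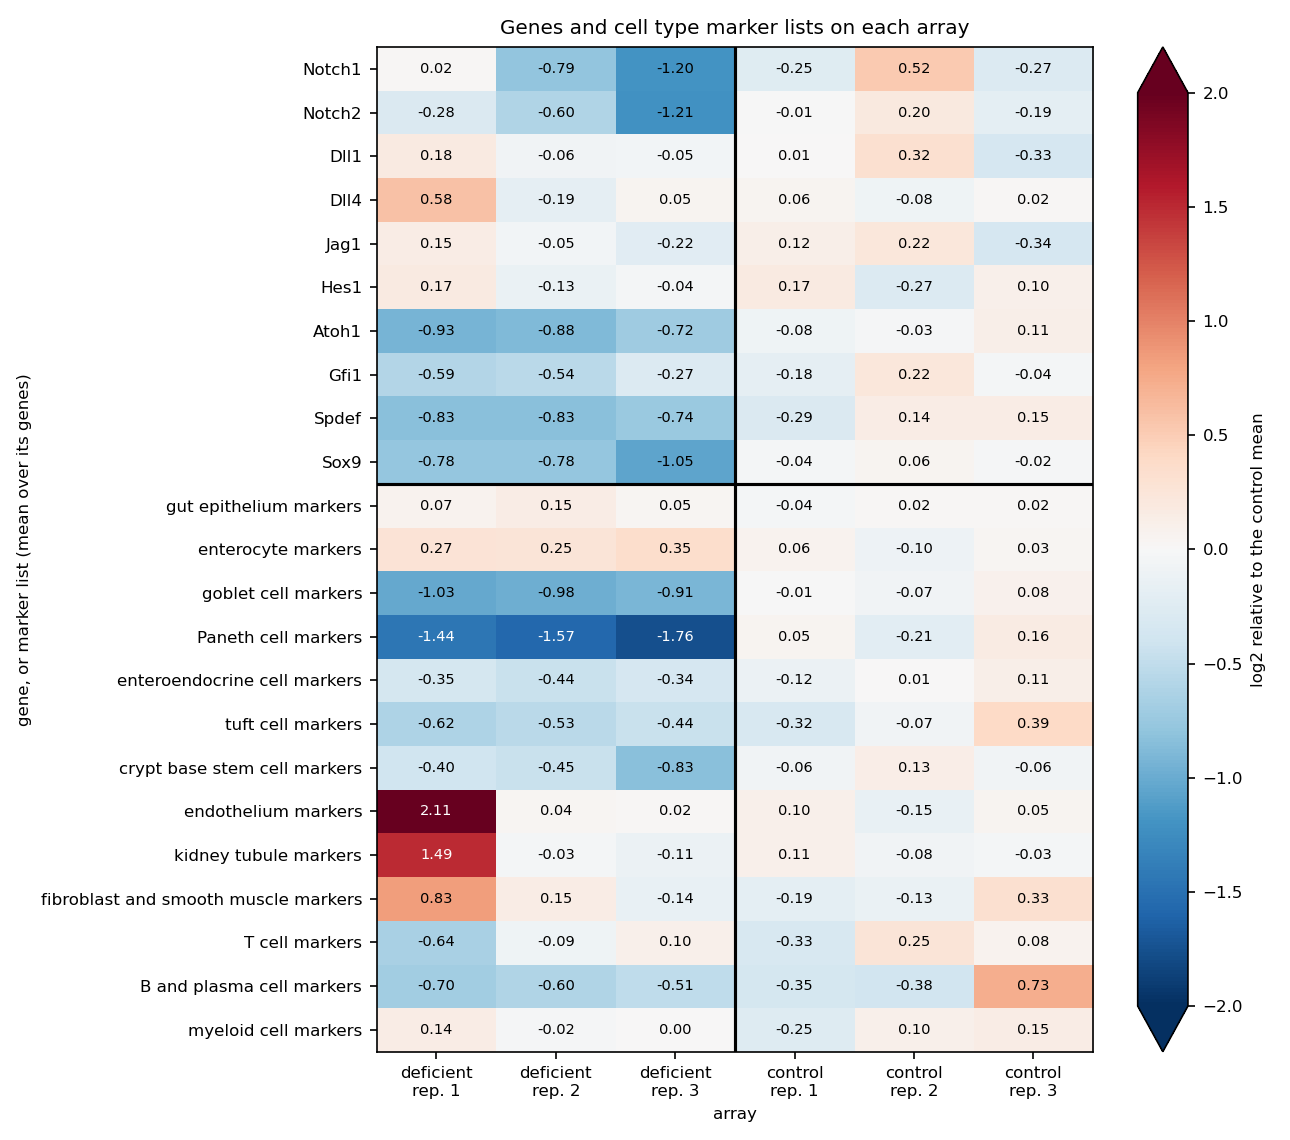
Level of each gene, and mean level of each cell type marker list, on each array in log2 units relative to the mean of the controls, deficient arrays in the left 3 columns and control arrays in the right 3. Blue is lower and red higher, with the colour scale limited to −2 and 2. Atoh1, Spdef, Sox9, Gfi1 and Notch2 are lower on all 3 deficient arrays than on any control. The same holds for the goblet, Paneth, enteroendocrine, tuft, crypt base stem and B and plasma cell lists. The enterocyte and gut epithelium lists are higher on all 3 deficient arrays. Deficient replicate 1 is high for the endothelial (2.11) and kidney (1.49) lists.

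The differences of the fate factors stood beside those of the cells they specify. Goblet cell markers had a mean of −1.03, −0.98 and −0.91 on deficient replicates 1, 2 and 3 relative to the control mean, and Paneth cell markers −1.44, −1.57 and −1.76. Of 12 goblet markers 6 fell, and of 8 measured Paneth markers 6 fell, with 0 rises in either list (limma, where 0.467% of all genes were called lower and 0.308% higher). Their summed linear levels did not overlap between groups. The goblet sum was 33823 to 38427 over deficient arrays and 53849 to 60667 over controls, and the Paneth sum 18318 to 22647 over deficient arrays and 53280 to 59841 over controls. On the same scale Atoh1 stood at −0.93, −0.88 and −0.72 and Spdef at −0.83, −0.83 and −0.74 in the deficient replicates. Enteroendocrine markers were at −0.35, −0.44 and −0.34, with 1 of 12 that fell. Tuft cell markers were at −0.62, −0.53 and −0.44, with 0 of 10 that passed. Markers of enterocytes, the absorptive fate, were at 0.27, 0.25 and 0.35, with 1 of 11 that rose. Crypt base stem cell markers were at −0.40, −0.45 and −0.83, with 1 of 12 that fell. They were lowest on deficient replicate 3, as Sox9 was. Groups did not overlap in 9 of 12 goblet, 7 of 8 Paneth, 7 of 12 enteroendocrine and 7 of 10 tuft cell markers, all lower in deficient cells. Of 12 crypt base markers 8 were lower without overlap and 1 higher, and of 11 enterocyte markers 7 were higher and 0 lower. The shares of all genes were 11.2% lower and 11.5% higher. Among markers of cells outside the epithelium, 0 of 13 for fibroblasts and smooth muscle, 0 of 11 for T cells and 0 of 9 for B and plasma cells passed, and of 12 myeloid markers 1 rose and 1 fell. The mean of the B and plasma cell list was −0.70, −0.60 and −0.51 on deficient replicates 1, 2 and 3, against −0.35, −0.38 and 0.73 on controls, so it too was lower on every deficient array. The T cell list (−0.64, −0.09 and 0.10 on deficient arrays, against −0.33, 0.25 and 0.08 on controls) and the fibroblast and smooth muscle list (0.83, 0.15 and −0.14 against −0.19, −0.13 and 0.33) overlapped between groups. The part of these cell types in the fate factor values was not tested.

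The pathway around these genes was followed through 7 lists with 105 entries, of which 95 were measured by a single-gene probe set. Of these 95 genes 1 fell, 0 rose and 94 did not pass (limma, against 0.467% lower and 0.308% higher of all genes tested).

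Of 8 other receptors and ligands 0 passed, with a median of 0.09. All but Jag2 were dim, with group means below 6, and Dll3 read 3.50 on all 3 controls, so changes here could be missed. The closest to the threshold was Notch3, a receptor of vascular smooth muscle, at 0.53 (adjusted p = 0.386). It read 4.47, 3.42 and 3.50 in deficient cells, against 3.16, 3.09 and 3.54 in controls. Deficient replicate 1, the array with high endothelial markers, was the highest, and without it the difference was 0.19. A second Notch3 probe set stood at 0.07. Dlk2 stood at 0.19, with 0.44 by its other probe set, and Cntn1 at −0.15, with −0.44 and 0.12 by its others. Of 8 measured genes of Notch cleavage 0 passed (median −0.09). Aph1b, Psen2 and Aph1a, parts of the gamma-secretase complex that cuts the receptor, stood at −0.24, −0.21 and −0.16. Of 13 measured genes of the nuclear complex and its co-repressors 0 passed (median −0.02), with Cir1, which binds RBPJ, at 0.30 and the Groucho-type co-repressors Tle1 and Tle2 at 0.59 and 0.36. Every deficient array lay above every control in these 3, and below every control in 2, Rbpj (−0.28, limma, adjusted p = 0.271) and Hdac1 (−0.23, adjusted p = 0.382). The shares of all genes were 11.5% higher and 11.2% lower.

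Among 19 genes of receptor glycosylation and trafficking 0 passed (median −0.04), and the groups did not overlap in 5, against 22.7% of all genes. Lfng, the Fringe enzyme that adds sugars to Notch and shifts its preference among ligands, read 5.08, 4.93 and 4.98 in deficient cells, against 5.51, 5.69 and 5.29 in controls. The difference of −0.50 did not pass (limma, adjusted p = 0.134). Poglut1, which puts glucose on Notch, stood at −0.40 (adjusted p = 0.175). Neurl1a, an E3 ligase of the Neuralized family that acts on ligands, read 6.07, 5.87 and 5.89 in deficient cells, against 5.35, 5.33 and 5.48 in controls (0.56, adjusted p = 0.0791). Its 5 other probe sets ran from −0.33 to 0.22, so the higher level rests on 1 probe set.

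Of 11 genes listed as Notch-induced, among them HES and HEY repressors and the Id inhibitors of bHLH factors, 0 passed (median 0.09). Hes5, Hes7, Hey1, Hey2 and Heyl were dim, with group means of 2.59 to 5.26, and the median is the value of Hey1. Changes of such dim genes are understated, so the median does not show that Notch output was unchanged. Nrarp, a direct Notch target that dampens the signal, read 8.22, 7.96 and 7.55 in deficient cells, against 8.82, 8.99 and 8.57 in controls. The groups did not overlap and the difference of −0.89 (SE 0.19, limma) was as large as that of Sox9 without passing (adjusted p = 0.0887). It passed without deficient replicate 1 (−1.04, adjusted p = 0.0477), without dim genes (0.0456) and with array weights (0.0148). In the other 13 settings run it did not pass (adjusted p = 0.0552 to 0.748), among them the average of both probe sets (−0.63, 0.147). Nrarp is also a Wnt target, and its second probe set stood at −0.37. Id3 and Id1, which bind bHLH partners and keep factors such as ATOH1 from DNA, stood at 0.48 and 0.46 (adjusted p = 0.149 and 0.215). Every deficient array was above every control for both. The reverse held for 3 of the 11: Nrarp, Olfm4 (−0.39, adjusted p = 0.241) and Bcl2 (−0.40, adjusted p = 0.244). That is 2 higher and 3 lower without overlap, against 11.5% and 11.2% of all genes.

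Among 22 measured transcription factors of secretory cells there was 1 that fell and 0 that rose. The other 21 did not pass, the median was −0.28, and 19 of the 22 differences lay below 0. The deficient arrays lay below all controls in 9 of the 22 and above them in 1, against 11.2% and 11.5% of all genes. Bhlha15 (Mist1), a bHLH factor of the secretory apparatus, read 6.05, 6.09 and 5.51 in deficient cells, against 6.90, 7.20 and 6.94 in controls, a difference of −1.13 (SE 0.18, limma, adjusted p = 0.0418). A dimmer probe set gave −0.19, and averaging both gave −0.66 (adjusted p = 0.0738). Adjusted p was 0.0398 when deficient replicate 1 was dropped and 0.0870 to 0.153 when any other array was. Bhlha15 also lost its call with the Gapdh difference as a covariate (0.306) and without control replicates 1 and 2 (0.685). Spib, an Ets factor of Paneth, tuft and M cells, read 6.17, 6.05 and 5.84 in deficient cells, against 6.63, 7.07 and 7.38 in controls (−1.01, adjusted p = 0.0706). It was highest on control replicate 3, as the mean of the B and plasma cell list was (0.73). The part of such cells in the Spib value was not tested. Foxa3, a forkhead factor of goblet and endocrine cells, stood at −0.91 (adjusted p = 0.0716). Creb3l1, an endoplasmic reticulum factor of secretory cells, stood at −0.83 (adjusted p = 0.0862).

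Of 14 measured factors of absorptive cells or of gut epithelium in general 0 passed (median 0.06). Gata4, which sets jejunal identity, read 7.56, 7.44 and 7.58 in deficient cells, against 6.89, 6.93 and 6.96 in controls. It was higher on every deficient array than on any control, at 0.60 (0.55 by its second probe set). It missed the threshold (limma, adjusted p = 0.0519), but passed in 4 of the 16 other settings run. These were leaving out dim genes (0.0237), a variance trend and robust prior (0.0455), array weights (0.0122) and repeated quantile normalisation (0.0490). The SD was 0.07 in deficient cells and 0.03 in controls. The groups did not overlap in 3 higher and 3 lower genes of these 14, against 11.5% and 11.2% of all genes. Ehf, an Ets factor of epithelium, stood at −0.91 (adjusted p = 0.0886), its other probe sets running from −0.70 to 0.03. Creb3l3, a factor of enterocyte lipid metabolism, stood at 0.57 (adjusted p = 0.145).

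**Figure D4:**
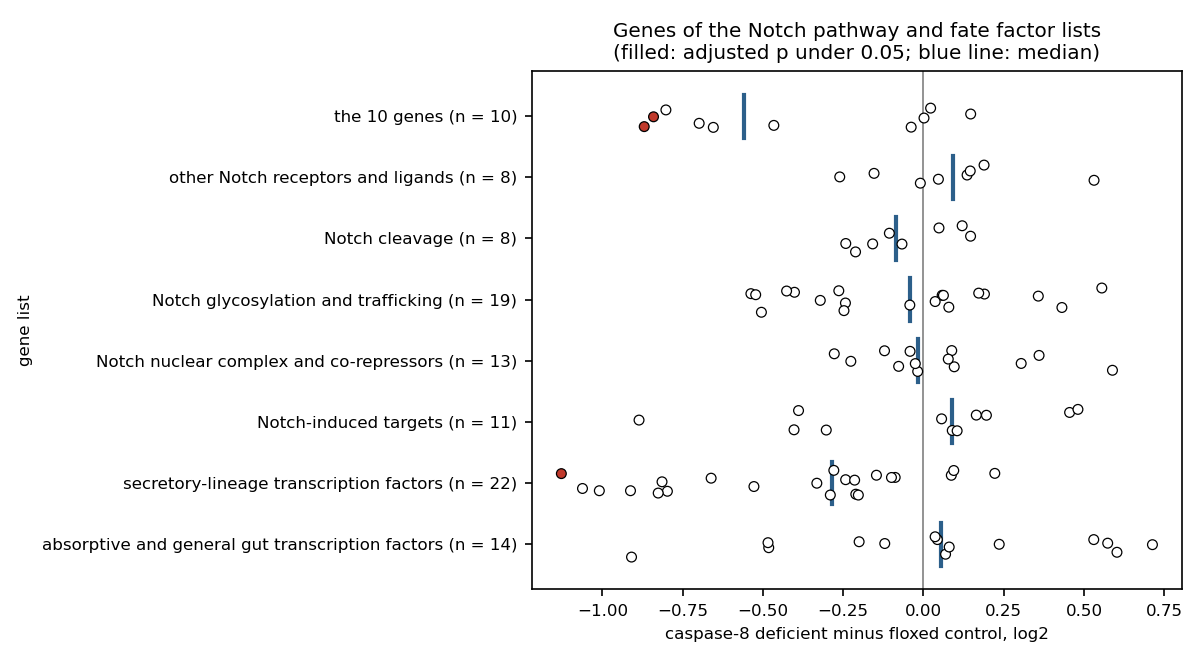
Log2 difference, caspase-8 deficient minus floxed control, of every measured gene in the 10 genes and in each of the 7 pathway lists. Points are genes, filled where adjusted p was under 0.05, with the median of each list in blue. The medians are −0.56 for the 10 genes and −0.28 for secretory-lineage transcription factors, and lie between −0.09 and 0.09 for the other lists. The lists of other receptors and ligands and of Notch-induced targets include dim genes, with means below 6.

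The genes whose levels ran most like those of Atoh1 over the 6 arrays, among 9038 others with a mean level of at least 6, were Ttc14, Eif3e, Dph6, Alkbh1 and Hgfac (Pearson r = 0.996, 0.992, 0.991, 0.990 and 0.989). Their own differences ran from −0.81 for Hgfac to −0.24 for Eif3e. Those most like Sox9 were Mlph, Nrm, Galnt12, Sinhcaf and Tmed9 (Pearson r = 0.995, 0.994, 0.993, 0.993 and 0.993), with differences from −0.92 for Mlph to −0.46 for Sinhcaf. Galnt12 also stands in the goblet marker list. Among the 10 genes, Atoh1 ran with Spdef at r = 0.962, with Sox9 at 0.926 and with Gfi1 at 0.876, against −0.03 with Hes1 and −0.18 with Dll1. With 6 arrays in 2 groups these values mostly restate the group difference and are given as a description.

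**Figure D5:**
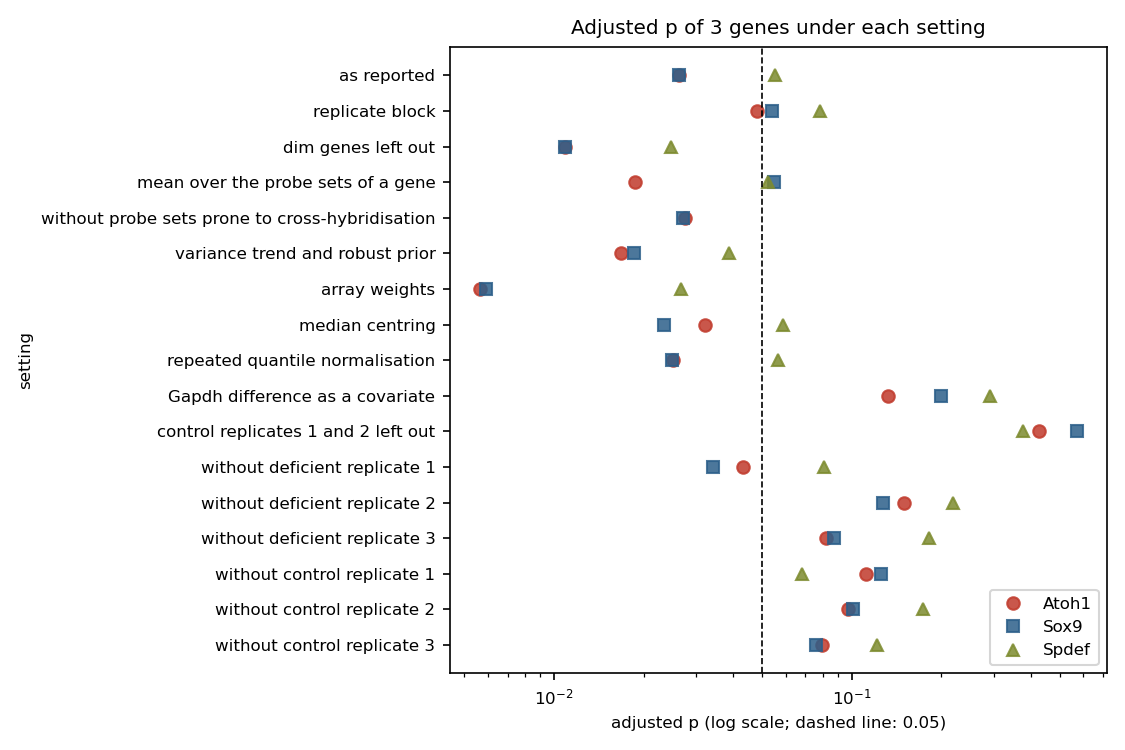
Adjusted p (log axis) of Atoh1, Sox9 and Spdef as reported and under each of 16 other settings, with the threshold of 0.05 dashed (Spdef has no value without probe sets prone to cross-hybridisation). Atoh1 passed in 9, Sox9 in 7 and Spdef in 3 of the other settings run for each, and all 3 genes lie above the threshold when any array other than deficient replicate 1 is left out.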

How the data were processed

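The deposited table holds log2 expression values that the authors made with RMA, as the submitters' processing notes name it. The sources used here state no version or settings. RMA understates changes of dim genes, the table holds no detection calls, and precision is limited by the small number of arrays. The values ran from 1.13 to 14.1, with array medians of 4.85 to 4.91. Sample titles gave the groups and the replicate numbers. Probe sets were named through GEO's platform annotation, which can be old. Of 45101 probe sets, 64 were manufacturer's controls, 932 were paired with several genes and 9160 with none, and these were left out. A gene was represented by its probe set with the highest mean over the arrays.

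Deficient minus control was tested in R 4.3.3 with limma 3.58.1, using lmFit and eBayes on the 2 groups without covariates (two-sided), once over 18193 genes and once over 34945 probe sets, each with Benjamini-Hochberg adjustment over all rows and a threshold of 0.05. Adjusted p-values of a gene come from the gene fit, those of its dimmer probe sets from the probe set fit. The p-values reflect how far arrays of separate animals differ. The fits were tested on simulated data with planted differences larger than any among the Notch and fate genes. Recovery of differences of the size seen in those genes was not tested. Atoh1 minus Hes1 was compared with scipy 1.17.1 (exact permutation test). The sample titles do not say whether the replicate numbers pair the arrays. Deviations from the group means of same-numbered arrays correlated at 0.077, 0.105 and −0.007 across genes. Differently numbered arrays were not set beside them, so these values do not settle whether animals were paired. Alternatives were the replicate block, leaving out genes with a mean below 6, averaging the probe sets of each gene, dropping those prone to cross-hybridisation (with _s_, _x_ or _a_ in their name), a robust prior with a variance trend, array weights, median centring, repeated quantile normalisation, the Gapdh difference as a covariate, leaving out control replicates 1 and 2, and leaving out each array.

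The 10 genes, the gene lists and the alternatives were chosen with earlier results of these data known. Named beside the 10 are, in each of the 7 pathway lists, genes that passed and up to 3 others with the smallest p, and the 5 genes most correlated with each of the 10 that passed. Pecam1, Cdh5, Olfm4, Bcl2, Rbpj, Hdac1 and the genes of the closing section were named after their values were seen. Of the list entries, 10 of 105 had no single-gene probe set and were not analysed here. Upstream sequences are from the RefSeq table of GRCm38.p6.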

Additional observations from a re-analysis of the deposited data

How the results depend on the processing

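Of the 10 genes, 3 passed when dim genes were left out, with a variance trend and robust prior or with array weights (Spdef was the addition). With the replicate block, which pairs arrays by number, 1 passed (Atoh1, adjusted p = 0.0481, with Sox9 at 0.0541) and 113 of all genes were called, and with the mean over probe sets 1 (Atoh1). None passed in limma with the Gapdh difference as a covariate or without control replicates 1 and 2, that is 0 each, with 4 and 3 genes at an unadjusted p under 0.05. Leaving out 1 array gave 0 to 2, with 2 without deficient replicate 1 and 0 without each of the others. Atoh1 and Sox9 still stood at −0.93 and −0.83 with the covariate (adjusted p = 0.132 and 0.200) and at −0.95 and −0.85 without control replicates 1 and 2 (0.426 and 0.572, with 1 control left, which is assumed to vary like the others). Atoh1, Gfi1, Spdef, Sox9, Notch1 and Notch2 stayed below 0 in every setting run. The near-zero genes changed sign without passing. Dll1 was −0.0001 and Dll4 −0.0553 with array weights. Jag1 was 0.27 with the covariate and 0.30 without control replicates 1 and 2. Hes1 was −0.18 with array weights, −0.13 with the covariate and −0.0939 without control replicates 1 and 2. When 1 array was left out Dll1 ran from −0.14 to 0.18, Dll4 from −0.0687 to 0.31, Jag1 from −0.21 to 0.0742 and Hes1 from −0.13 to 0.0888. Without probe sets prone to cross-hybridisation Psen2 was 0.0722 and Aph1a 0.0131, and Aph1a was 0.0064 with the covariate and 0.0116 without control replicates 1 and 2. The difference of Atoh1 minus Hes1 ran from −0.97 to −0.71.

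Over all genes the count of calls was 141 (56 higher, 85 lower), and 295 without dim genes, 252 with a trend and robust prior, 1406 with array weights, 36 with the covariate, 5 without control replicates 1 and 2, and 18 to 251 without 1 array (lowest without deficient replicate 3, highest without deficient replicate 1). Over probe sets it was 139, and 405, 250, 1631, 23, 3 and 19 to 291 under the same settings. The causes of these shifts were not tested.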

Other observations

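Further transcription factors of the secretory list lay lower on every deficient array than on any control without passing, and are named here after their values were seen. Creb3l4, a relative of Creb3l1 in the endoplasmic reticulum, stood at −1.06 (limma, adjusted p = 0.0886), Foxa2, a forkhead factor of goblet and enteroendocrine cells, at −0.80 (adjusted p = 0.0932) and Sox4, which acts in tuft and endocrine differentiation, at −0.81 (adjusted p = 0.160). Creb3l4 read 5.08 on all 3 deficient arrays and 6.38, 5.57 and 6.47 in controls, so its spread within groups comes from the controls alone. Cbfa2t3, a co-repressor of the MTG family, stood at −0.66 and Isl1, an endocrine factor, at −0.53. Klf4, which goblet cells use to mature, was the 1 factor of this list that was higher on every deficient array, at 0.22 (adjusted p = 0.385).

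Equal deposited values on at least 2 arrays occurred in 23.4% of the 34945 probe sets, and in 4 of the 17 probe sets of the Notch and fate genes. For Sox9 deficient replicates 1 and 2 share a value, which enters the spread behind its test.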
